A study of Mus musculus with 6 samples.

Results

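Chromatin accessibility was examined at 36 genes that characterise mast cells and basophils, in cells of mouse fetal liver that the fusion oncogene MLL-ENL had transformed. A region of the authors' table was taken as a member region when it overlapped the body of one of these genes or the 25 kb on either side. By this rule 32 of the 10016 listed regions lay at 18 of the 36 genes, and the other 18 genes had none. No region fell into the windows of more than 1 member.

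ATAC-seq counts reads where the Tn5 transposase can insert adapters, so that more reads over a region mean more open DNA. The 3 groups had 2 libraries each, and the table covers the 4 libraries of WT and dKO. All cells carried retroviral MLL-ENL and, per the study's methods, were grown with IL-3. WT cells had a wild-type genotype with no exogenous gene in their labels, and per the study's methods they derived from animals with floxed Cebpa and Cebpb. The dKO cells lacked the genes of C/EBPα and C/EBPβ (Cebpa and Cebpb), transcription factors of the myeloid lineage, and expressed GFP, so the vector as well as the deletion sets them apart from WT and the effects of both cannot be told apart. Per the study's methods dKO cells were recovered as clones after Cre recombination, and which clones provided the 2 libraries is not given in the sources used here. The study describes such clones as rare survivors, all of which strongly expressed the related protein C/EBPε. Effects of this selection and of C/EBPε cannot be told apart from those of the deletion either. Values for the dKO-LAP* group, which lacked both genes and expressed GFP and the rat C/EBPβ isoform LAP*, were not analysed here. The table gives 1 mean per group, so that no value per library, no SD and no test of a member could be had. A region was listed when it passed the corrected P-value of 0.05 in the authors' DiffBind comparison, and that call is the only statement of significance for the regions below.

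Mast cells and basophils are granulocytes of allergy and of defence against parasites. Both display the high-affinity IgE receptor, and its crosslinking releases preformed histamine, proteases and proteoglycan from granules, followed by leukotrienes, prostaglandins and cytokines. Mast cells also depend on the receptor tyrosine kinase KIT. By their labels the cultures are transformed fetal liver cells, and the labels name neither mast cells nor basophils. These genes share transcriptional regulators with neighbouring myeloid lineages, among them GATA2, PU.1, RUNX1, MITF and C/EBPα.

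The sequences below are the central 200 bases of 10 member regions, shown because they are the most changed regions of up to 2 members in each role (receptors, granule contents, mediator synthesis, cytokines, signalling and exocytosis). They are read from the mm10 plus strand, as in GRCm38.p6. Capitals mark matches on either strand to consensus strings for C/EBP (TTACNNAA and TTGCNNAA), AP-1 (TGACTCA and TGAGTCA), PU.1 (GAGGAAGT), RUNX (AACCACA), factors of the GATA family (AGATAA and TGATAA) and MITF (TCACGTG and TCACATG).

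Il1rl1, chr1:40412489-40412688: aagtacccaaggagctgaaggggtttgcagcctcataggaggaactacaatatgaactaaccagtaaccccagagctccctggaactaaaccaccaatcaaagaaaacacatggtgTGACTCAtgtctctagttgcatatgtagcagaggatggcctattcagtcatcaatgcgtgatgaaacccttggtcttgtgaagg
Ms4a2, chr19:11646282-11646481: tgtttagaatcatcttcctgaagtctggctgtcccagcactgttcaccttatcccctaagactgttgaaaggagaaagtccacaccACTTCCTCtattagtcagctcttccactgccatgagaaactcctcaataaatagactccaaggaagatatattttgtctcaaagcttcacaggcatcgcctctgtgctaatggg
Tpsab1, chr17:25332361-25332560: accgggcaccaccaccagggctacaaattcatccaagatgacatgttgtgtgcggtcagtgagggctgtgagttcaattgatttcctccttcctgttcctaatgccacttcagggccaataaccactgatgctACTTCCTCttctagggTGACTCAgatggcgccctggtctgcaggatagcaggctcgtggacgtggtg
Srgn, chr10:62491709-62491908: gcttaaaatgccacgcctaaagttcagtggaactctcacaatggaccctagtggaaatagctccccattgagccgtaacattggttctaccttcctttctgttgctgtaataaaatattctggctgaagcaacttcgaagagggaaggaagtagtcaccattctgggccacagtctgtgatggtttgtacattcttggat
Hdc, chr2:126587558-126587757: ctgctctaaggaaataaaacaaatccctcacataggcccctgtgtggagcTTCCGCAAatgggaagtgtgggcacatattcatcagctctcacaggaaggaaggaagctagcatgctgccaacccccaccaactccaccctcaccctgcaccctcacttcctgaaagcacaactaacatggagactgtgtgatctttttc
Il5, chr11:53748726-53748925: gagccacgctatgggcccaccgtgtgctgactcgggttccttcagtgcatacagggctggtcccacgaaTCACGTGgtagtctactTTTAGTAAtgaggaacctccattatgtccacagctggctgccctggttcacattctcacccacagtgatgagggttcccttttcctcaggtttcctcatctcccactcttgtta
Lyn, chr4:3812648-3812847: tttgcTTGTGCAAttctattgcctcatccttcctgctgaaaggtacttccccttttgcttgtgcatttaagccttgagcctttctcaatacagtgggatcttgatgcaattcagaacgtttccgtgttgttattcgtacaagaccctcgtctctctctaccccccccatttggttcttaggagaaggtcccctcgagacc
Gab2, chr7:97075102-97075301: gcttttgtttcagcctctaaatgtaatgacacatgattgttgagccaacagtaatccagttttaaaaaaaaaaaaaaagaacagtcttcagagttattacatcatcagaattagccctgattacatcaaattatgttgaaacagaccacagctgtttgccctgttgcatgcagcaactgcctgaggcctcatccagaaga
Scin, chr12:40104802-40105001: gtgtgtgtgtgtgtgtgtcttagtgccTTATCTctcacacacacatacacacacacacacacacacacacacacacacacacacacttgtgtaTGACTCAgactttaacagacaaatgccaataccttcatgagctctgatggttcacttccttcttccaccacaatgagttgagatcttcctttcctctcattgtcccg
Stx3, chr19:11807372-11807571: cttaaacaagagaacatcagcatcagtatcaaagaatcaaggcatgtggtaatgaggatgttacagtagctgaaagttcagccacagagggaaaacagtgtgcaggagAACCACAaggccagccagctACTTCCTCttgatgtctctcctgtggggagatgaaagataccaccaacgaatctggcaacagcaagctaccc

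The windows at Il1rl1 and Scin each hold the AP-1 string TGACTCA, and Scin also has a GATA match on the minus strand between stretches of dinucleotide repeats. PU.1 matches, all on the minus strand, stand in the windows of Ms4a2, Tpsab1 and Stx3, joined by AP-1 at Tpsab1 and by RUNX at Stx3. The windows of Hdc, Il5 and Lyn each have a C/EBP match, and that of Il5 also the MITF string TCACGTG. At Srgn and Gab2 none of the strings occurs in the window shown.

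Of the 32 member regions, 26 were more accessible in dKO and 6 were less accessible. The share of higher regions was 81.2%, beside 60.3% of all listed regions. Lower regions made up 18.8%, beside 39.7%. At least 2-fold higher in dKO were 22 member regions (68.8%, against 49.6% of all listed regions), and at least 2-fold lower was 1 (3.12%, against 35.9%). When differences were centred on the median of all listed regions, 22 member regions were higher and 10 lower (68.8%, against 50.0% by construction). Without centring, the median log2 difference, dKO minus WT, was 1.54 at the members and 0.98 over all listed regions. By gene, 13 members had higher regions only, 4 had lower regions only and Ms4a2 had both. Without Scin, which held 6 of the regions, 76.9% of the other 26 were higher. The members were chosen with earlier results of these data known. In the study's RNA-seq, Alox5, Cpa3, Gzmb, Scin and Stx3 are named among genes whose HOXA9-mediated suppression was deregulated in dKO cells. The shares therefore describe this chosen set and are no independent support. A change in the share of cells in which a region is open and a change within each cell cannot be told apart in such bulk libraries.

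**Figure D1:**
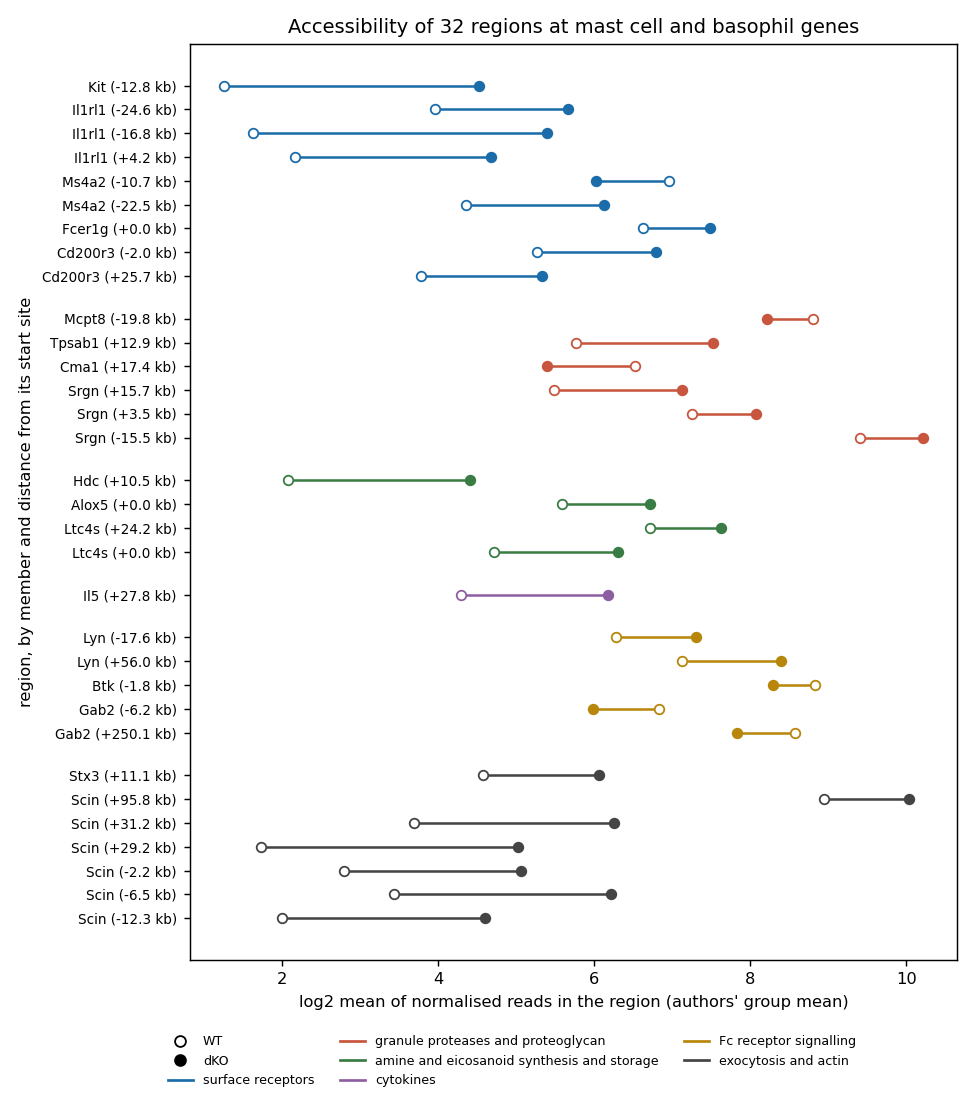
Log2 mean of normalised reads (x axis) of the 32 member regions in WT (open circles) and dKO (filled circles), 1 line per region, labelled with the member and the distance in kb from its nearest annotated start site, and coloured by role. The filled circle lies to the right of the open one in 26 regions, and the widest gap is at Il1rl1, from 1.63 to 5.39.

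The deleted loci went the way of the labels. At Cebpb, 1 region went from 8.60 in WT to 3.37 in dKO, so reads remained there, and another went from 7.38 to -0.15. The region over Cebpa went from 9.99 in WT to the lowest listed level, -0.15, in dKO. That level is what 1 read in each of 2 libraries is worth, and 3 reads per library correspond to a log2 mean of 1.43. The normalised read means below are therefore read against this floor, which 1 member region did not exceed in WT. For a mean under the floor, the fold is given against the floor itself. Such a fold leaves out the counting error of both groups.

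Among the surface receptors, 5 of 7 members had regions, 8 higher and 1 lower, with a median difference of 1.71. Il1rl1 encodes ST2, the receptor for the alarmin IL-33, and had 3 regions, all higher. The region 16830 bp upstream of its start (chromosome 1, 40412436 to 40412740) stood at 1.63 in WT and at 5.39 in dKO on the log2 scale, a difference of 3.76 or 13.5-fold, and 230 of the 10016 listed regions had a larger one. A second upstream region (40404632 to 40405015) went from 3.96 to 5.67. The third, in an intron (40444780 to 40445076), went from 2.17 to 4.68. Of the 3 regions, the 2 with the lowest WT means had the largest differences.

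Kit encodes the receptor for stem cell factor. Its only region (chromosome 5, 75624066 to 75624324) lies in an intron, 12791 bp upstream of the start of a short annotated transcript and with its centre 49.3 kb into the gene, and went from a log2 mean of 1.26 to 4.52. The WT value was under the floor. Set against the floor, accessibility was 8.49-fold higher in dKO, and the deposited difference of 3.26 is no measured ratio. No region over the Kit promoter was listed.

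The IgE receptor consists of an α chain (Fcer1a), a β chain (Ms4a2) and the γ chain shared with other Fc receptors (Fcer1g). Fcer1g had 1 region (chromosome 1, 171234020 to 171234797), which covers its start site and part of its coding sequence and went from 6.63 to 7.49, a difference of 0.86. Ms4a2 had a region 22454 bp upstream (chromosome 19, 11646173 to 11646590) that was higher, 4.36 against 6.13. Its other region, 10678 bp upstream (11634397 to 11634768), was lower, 6.96 in WT against 6.02. Both of these lie nearer to a start site of Ms4a3, and the lower one lies within Ms4a3. Fcer1a had no listed region, and the nearest one to its body was 182 kb away. After centring on the median of all listed regions, the difference at Fcer1g turned to -0.12 and the median of the 2 regions at Ms4a2 to -0.56.

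Cd200r3 encodes a receptor of the CD200 receptor family found on mast cells and basophils. An intronic region (chromosome 16, 44962790 to 44963205) went from 5.27 to 6.79, and a region 9617 bp beyond the 3′ end (44990997 to 44991269) from 3.78 to 5.33, differences of 1.52 and 1.55. Mrgprb1, a Mas-related G protein-coupled receptor gene, had none, and the nearest lay 467 kb away.

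Granule proteases and their proteoglycan gave a mixed picture, with 4 higher and 2 lower regions at 4 of 9 members and a median difference of 0.81. After centring on the median of all listed regions, the balance turned to 2 more lower than higher regions and the median at Srgn to -0.16. Srgn encodes serglycin, the proteoglycan that binds proteases and histamine in granules, and its 3 regions were all higher. They went from 5.48 to 7.13 downstream of the gene (chromosome 10, 62491540 to 62492076), from 7.25 to 8.07 in an intron (62503868 to 62504268) and from 9.41 to 10.21 upstream (62542977 to 62544061). The upstream region lies within Kif1bp and the downstream one nearer to Vps26a. Beyond the Srgn window, all 15 listed regions within 500 kb were higher as well, as were 82.0% of those on chromosome 10, and their part in the Srgn result was not tested.

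The tryptase genes Tpsb2, Tpsab1 and Prss34 lie together on chromosome 17. Of the 3, Tpsab1 had a region (25332252 to 25332668), which was higher, 5.77 in WT against 7.53 in dKO. It lies 10.6 kb from the Tpsab1 body and within AC122454.1, and it is also the listed region nearest to Tpsb2, at 33.6 kb, and to Prss34, at 32.1 kb. The tryptase genes are similar in sequence, and how reads that match several places were handled is not given in the sources used here.

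A cluster on chromosome 14 holds the chymase genes Cma1 and Mcpt4, the basophil protease gene Mcpt8 and Gzmb, which encodes granzyme B. The 2 listed regions in the windows of these genes were lower in dKO. Farther out, within 500 kb, the direction was mixed: 2 of 5 listed regions around the Cma1 window and 2 of 6 around that of Mcpt8 were higher. The region 14.2 kb beyond Cma1 (55926545 to 55927229) went from 6.52 to 5.40, a difference of -1.12 or 2.17-fold lower, and was the only member region at least 2-fold lower. The region 19799 bp upstream of Mcpt8 (56105072 to 56105959) went from 8.81 to 8.22 and lies 2498 bp from a start site of Ctsg, which encodes cathepsin G of neutrophils. Mcpt4 and Gzmb had no region. The nearest one to Mcpt4, at 42.8 kb, is the same region as that of Mcpt8, and the nearest one to Gzmb, at 94.0 kb, was lower, with a difference of -2.22. Cpa3, the mast cell carboxypeptidase gene, had no region in its window, and the nearest one, 62.3 kb away, was higher by 1.48.

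**Figure D2:**
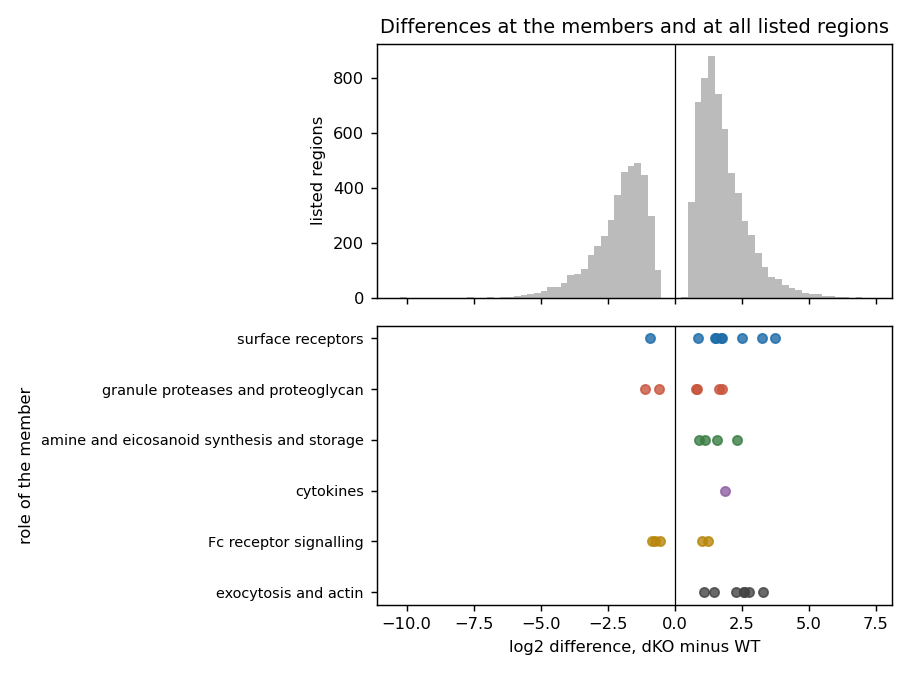
Log2 difference, dKO minus WT (x axis), as a histogram over all 10016 listed regions (top) and as 1 point per member region by role (bottom). Points lie on both sides of 0 for receptors, granule contents and signalling, and above 0 alone for mediator synthesis, cytokines and exocytosis, and none exceeds 3.76 or lies under -1.12.

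For the enzymes and transporters of amines and eicosanoids, 3 of 6 members had regions, and all 4 regions were higher, with a median difference of 1.36. Hdc encodes histidine decarboxylase, which makes histamine. A region 5879 bp beyond its 3′ end (chromosome 2, 126587526 to 126587788), within the neighbouring gene Slc27a2, went from 2.07 to 4.41, a difference of 2.34 or 5.06-fold. Hdc was the most changed of these members.

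Alox5 and Ltc4s act in sequence in leukotriene synthesis, as 5-lipoxygenase and leukotriene C4 synthase. Both start sites lay within a higher region. The Alox5 promoter region (chromosome 6, 116460849 to 116461350), which reaches into coding sequence, went from 5.59 to 6.72, and that of Ltc4s (chromosome 11, 50238464 to 50238721) from 4.71 to 6.30, differences of 1.13 and 1.59. A further region in the Ltc4s window (50212842 to 50213364) lies within Mgat4b and went from 6.71 to 7.63. With that of Fcer1g, these were the only 3 member regions over a start site of their own gene, and all 3 were higher. Nothing was listed for Tph1 (serotonin synthesis), Slc18a2 (vesicular amine transport) or Hpgds (prostaglandin D2 synthesis), whose nearest regions were 47.0, 185 and 449 kb away.

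Cytokine genes had 1 region among 4 members. The genes Il4, Il13 and Il5 of type 2 immunity share a locus on chromosome 11, and the region (53748632 to 53749018) lies 23.5 kb beyond the 3′ end of Il5. It went from 4.29 in WT to 6.18 in dKO, a difference of 1.89. Its nearest start site is that of Mir7671, 14636 bp away, and not that of Il5. The same region was the nearest listed one to Il13, at 114 kb, and to Il4, at 130 kb. Il6 had none, and the nearest lay 61.9 kb away.

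Signalling genes downstream of the IgE receptor had 2 higher and 3 lower regions at 3 of 8 members, and this was the only role with a median under 0, at -0.54. The balance turned to 1 more higher than lower region in the gene bodies alone and to 2 more at an absolute difference of at least 1. Lyn encodes the Src family kinase that phosphorylates the receptor first. Its upstream region (chromosome 4, 3659675 to 3660498), within 2210414B05Rik, went from 6.28 to 7.30, and one at the 3′ end of the gene (3812447 to 3813048) from 7.13 to 8.39. Differences of 1.02 and 1.26 made Lyn the one member of this role with gains.

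Gab2, an adaptor that links the receptor to phosphoinositide 3-kinase, had 2 lower regions. One, 6157 bp upstream (chromosome 7, 97074973 to 97075429), went from 6.83 to 5.98, and was the only lower member region whose nearest start site was that of the member itself. The other, 22960 bp beyond the gene (97331906 to 97332693), lies over a start site of Kctd21 and went from 8.57 to 7.83. For Btk, a Tec family kinase, the region 1785 bp upstream (chromosome X, 134585355 to 134586357) lies over a start site of Rpl36a and went from 8.83 to 8.29, the smallest difference at any member. The kinase gene Syk, the adaptor genes Lat and Lat2, the phospholipase gene Plcg2 and the regulator gene Rgs13 had no region, with the nearest ones 70.7, 176, 47.1, 37.5 and 672 kb from their bodies.

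Scin had more regions than any other member. It encodes scinderin, a calcium-dependent protein that severs actin filaments at the cell cortex during exocytosis. All 6 of its regions (chromosome 12) were higher. Upstream of the gene, the log2 mean went from 2.79 to 5.06 at 2240 bp (40136468 to 40136838), from 3.44 to 6.21 at 6512 bp (40140740 to 40141077) and from 2.00 to 4.60 at 12307 bp (40146535 to 40146849). Within the gene it went from 1.73 to 5.03 at a region over a coding exon (40104771 to 40105032), the largest difference of the gene at 3.30 or 9.85-fold, and from 3.69 to 6.26 in an intron (40102322 to 40102951). These 5 regions span 44.5 kb, and their differences, 2.27 to 3.30, were close to each other. The sixth, 21339 bp beyond the gene, covers a start site of Arl4a and went from 8.95 to 10.03. Among 21755 protein-coding genes, 116 (0.533%) had at least 6 listed regions in the same kind of window, and at 55 of these 116 all were higher. Outside the Scin window, all 5 listed regions within 500 kb were higher too, and their part was not tested.

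Stx3 encodes syntaxin 3, a membrane fusion protein of exocytosis. Its intronic region (chromosome 19, 11807316 to 11807627) went from 4.58 to 6.06, a difference of 1.48. Stx3 and Ms4a2 lie close together, and of the 9 listed regions within 500 kb outside the Stx3 window 8 were higher.

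**Figure D3:**
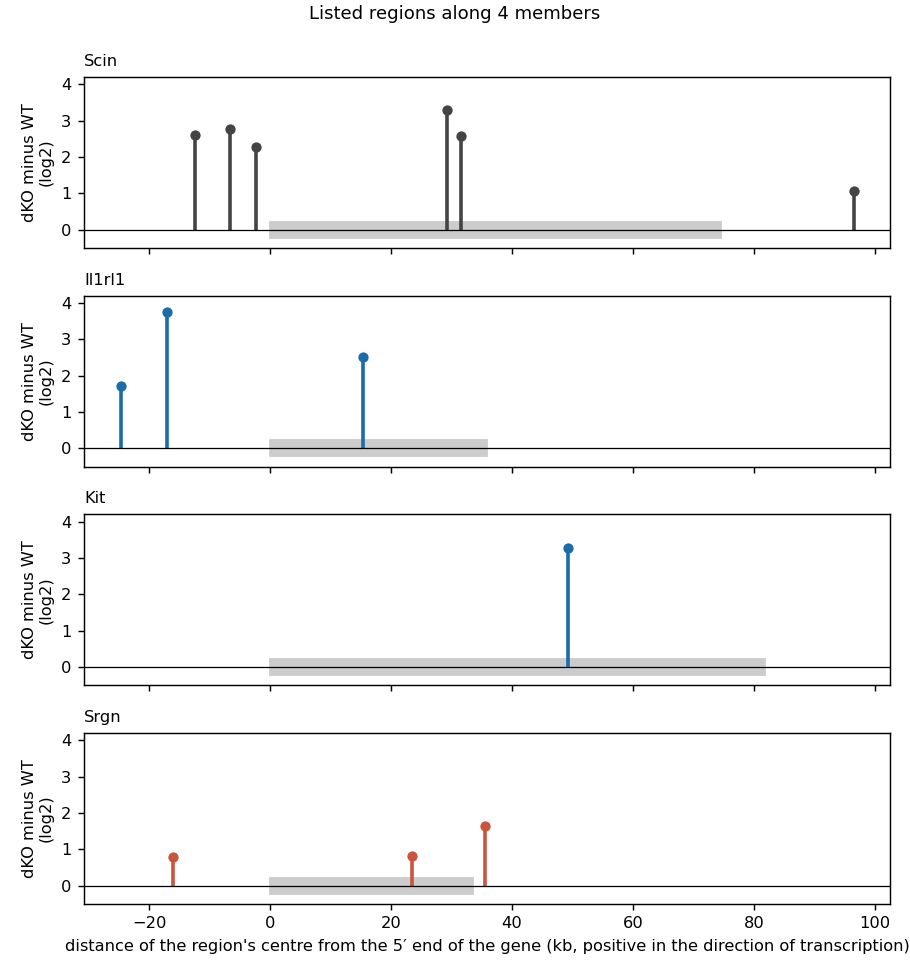
Log2 difference, dKO minus WT (y axis), of the listed regions along Scin, Il1rl1, Kit and Srgn, against the distance in kb of the region's centre from the 5′ end of the gene (x axis), with the gene body as a grey bar. Each line is 1 region, and all stand above 0, from 0.80 at Srgn to 3.76 at Il1rl1.

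The size of the difference went with the level in WT. Per kb of region, the 9 regions with a difference over 2, at Kit, Il1rl1, Hdc and Scin, had 9.25 to 32.1 normalised reads in WT and 77.0 to 219 in dKO. The other 17 higher regions had 40.5 to 627 in WT and 133 to 1090 in dKO. The 6 lower regions had 134 to 505 in WT and 61.6 to 336 in dKO. The medians of these 3 sets were 15.2, 96.0 and 394 in WT and 89.9, 261 and 232 in dKO, so the median of the regions with large gains stayed below the others in dKO, while the ranges overlapped. Both quantities contain the WT mean, and the table lists a region of low level only with a large difference. In the lowest quartile of the mean level the smallest listed absolute difference was 1.46, and in the highest quartile 0.49. Members had 7 regions in the lowest quartile, all higher, where 53.5% of all listed regions were higher, and 14 in the highest, 9 of them higher, beside 68.5%.

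**Figure D4:**
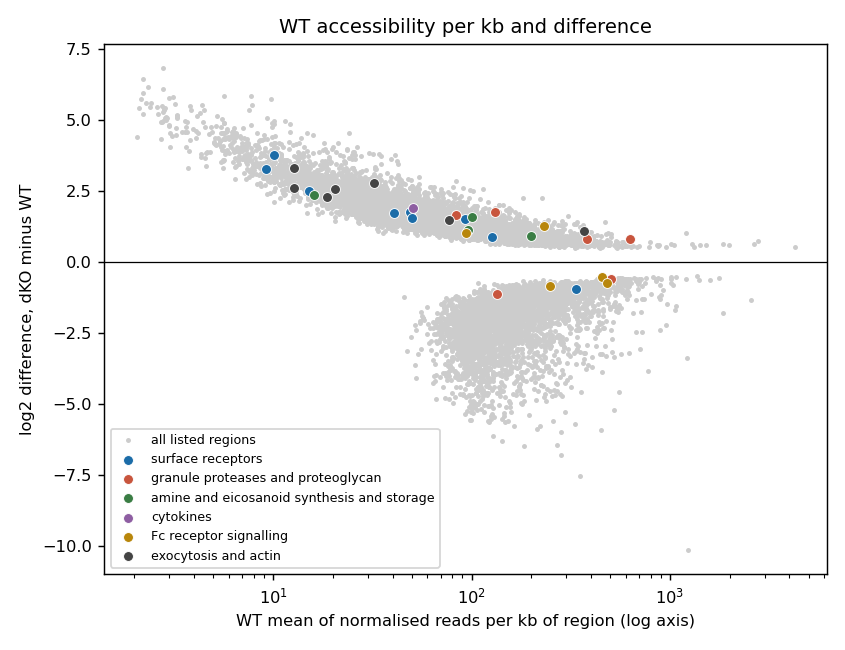
Log2 difference, dKO minus WT (y axis), against the WT mean of normalised reads per kb of region (x axis, log scale), for all listed regions (grey) and the 32 member regions (coloured by role). The 9 member regions with a difference over 2 have at most 32.1 reads per kb in WT, and the axes share the WT mean.

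By position, 11 member regions lay in the body of the gene (6 in introns and 5 over an exon), 12 upstream and 9 downstream. All 11 in the body were higher, beside 57.0% of the listed regions in bodies of protein-coding genes, and the 6 lower regions lay outside. For 19 regions the nearest start site of any annotated gene was that of the member, and 18 of these were higher, beside 57.9% of the listed regions that lay in the window of a protein-coding gene and nearest to its start site. The other 13 regions lay nearest to another gene, so their place in a member window does not tie them to the member. Member windows held 10.9 listed regions per Mb, against 5.27 per Mb in the merged windows of all protein-coding genes. A listed region was present for 50.0% of the members and for 35.2% of protein-coding genes, with median gene bodies of 20.7 and 17.4 kb.

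The central 200 bases of all 32 member regions were searched for the strings given above. C/EBP strings occurred in 7 regions (21.9%, against 28.4% of all listed regions), 5 higher and 2 lower. AP-1 occurred in 6 (18.8%, against 17.9%), all of them higher in dKO and 3 of them at Scin. Over all listed regions AP-1 strings were present in 26.7% of the higher and 4.67% of the lower ones, against 23.1% of the higher member regions. In these windows the PU.1, GATA and MITF matches were also all in higher member regions. In whole regions this held, of these 3, for MITF alone. GATA strings occurred in 3 of 6 lower and 9 of 26 higher member regions, and PU.1 in 1 lower one. Among all listed regions taken whole, GATA strings were present in 31.1% of the higher and 23.8% of the lower ones. PU.1 was present in 5.75% of the lower ones. Over all listed regions, PU.1 was present in 13.1% of higher and 3.34% of lower central windows, and MITF, the other way, in 6.41% and 10.4%. PU.1 occurred in 4 (12.5%, against 9.22%), RUNX in 4 (12.5%, against 11.9%), GATA in 4 (15.4% of the higher member regions, against 14.9% of the higher listed regions) and MITF in 2 (6.25%, against 8.02% of all listed regions). At least 1 of the strings was present in 59.4% of member regions, against 62.9% of all listed regions. The 13 member regions without any included all of those at Kit, Fcer1g, Alox5, Ltc4s, Btk, Gab2 and Cma1. The GC content had a median of 48.0% at the members and 50.0% over all listed regions.

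**Figure D5:**
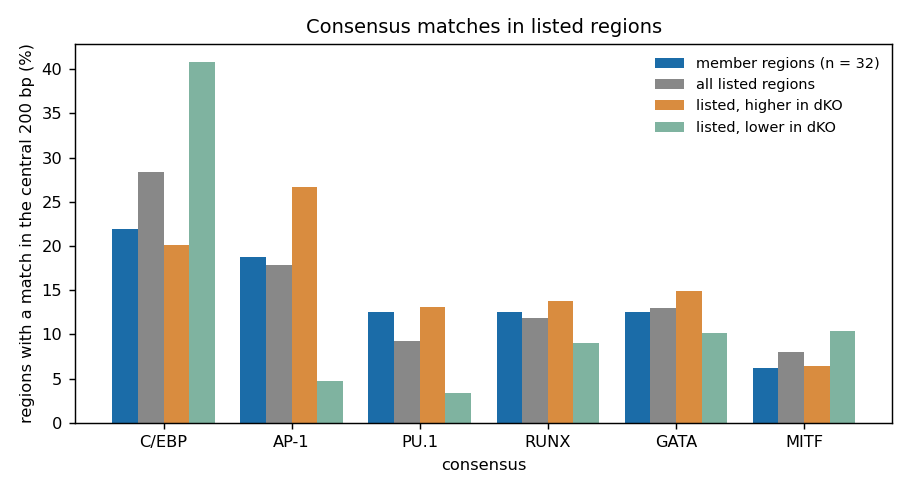
Share of regions (y axis, %) with a match to each consensus (x axis) in the central 200 bp, for the 32 member regions, all listed regions, and the listed regions higher or lower in dKO. C/EBP matches are present in 21.9% of member regions, and in 20.1% of the higher and 40.8% of the lower listed regions.

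Other genes of mast cell and basophil biology were listed by role, 74 in all, of which 73 were found in the annotation and 43 had regions. Of their 79 regions, 65 were higher (82.3%, beside 60.3% of all listed regions) and 14 lower, with a median difference of 1.17, beside 0.98. Centring on the latter median gave 50 higher and 29 lower. Among the 79, 2 are also regions of Il1rl1 and Mcpt8. Lineage regulators had 18 regions at 6 of 13 genes, all higher, and eicosanoid genes had 8 regions at 4 of 5 genes, all higher. Signalling genes had 19 higher and 10 lower regions at 16 of 17 genes, receptors 9 and 2 at 9 of 16, exocytosis genes 7 and 1 at 3 of 7, cytokines 4 and 0 at 4 of 9, and proteases 0 and 1 at 1 of 6. The 1 protease region is that of Mcpt8, counted here for Ctsg.

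Above the floor, the largest gains were near Snap23, a membrane fusion protein gene (1.68 to 4.85), in Pla2g4a, which encodes the phospholipase that frees arachidonic acid (1.63 to 4.69), and over a start site of Zeb2, a zinc-finger factor gene (4.33 to 7.27). The region near Snap23 lies closer to Zfp106, and its WT mean and that of the Pla2g4a region lie next to the floor of 1.43. Gata2, a regulator of mast cell and basophil development and here named after its values were seen, had 6 regions, all higher. In WT 2 of them were under the floor. Set against the floor, they were 12.9-fold and 9.68-fold higher in dKO. These are log2 values of 3.69 and 3.28, which exceed the difference of 3.17 near Snap23. The largest falls above the floor were at the kinase genes Prkcb (5.18 to 1.45) and Fyn (5.61 to 2.44) and at the phospholipase gene Plcg1 (5.16 to 2.32). Another region at Fyn and one at the leukotriene receptor gene Cysltr1 had dKO means under the floor. With dKO set to the floor, they were 9.35-fold (3.23 on the log2 scale) and 6.13-fold lower. The first Fyn region lies beyond the gene, closer to Gm16364, and the Prkcb region lies in an intron, closer to Gm45191, with its dKO value next to the floor of 1.43. Prkcb did not go 1 way: another lower region went from 5.81 to 4.47. One at 122329666 to 122329958, with a WT mean under the floor, was 10.2-fold higher in dKO against the floor.

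At 43 marker genes of neutrophils, monocytes, eosinophils, erythroid cells and megakaryocytes, B cells and T cells, 25 of 32 regions were higher (78.1%), with a median difference of 1.12. Neutrophil genes had 7 higher and 1 lower, monocyte genes 11 and 1, eosinophil genes 1 and 1, erythroid and megakaryocyte genes 3 and 0, B cell genes 2 and 4 and T cell genes 1 and 0. The share of higher regions at the mast cell and basophil genes, 81.2%, is to be read beside these, and whether they differ was not tested.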

How the data were processed

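ATAC-seq of WT, dKO and dKO-LAP* cells was analysed from the processed table alone. Per the study's methods and the submitters' processing notes, reads were preprocessed with PiGx and aligned to mm10 with Bowtie 2, peaks were called with MACS, and groups were compared with DiffBind (version 2.14.0). Duplicate handling and the Tn5 offset are not given in the sources used here, and either could change the read number of a region. The authors deposited log2 values: for each group, the mean of its 2 libraries' normalised reads on a log2 scale. These are the authors' means. Columns of fold change, p-value and FDR hold the authors' own comparison and were not used. The second file was identical to the first, so that 2 files gave 1 table, with no values for dKO-LAP*.

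The difference is the dKO minus the WT mean. Total depth per library is unknown. The lowest mean, -0.15, was taken as 1 read per library, since 100% of the 267 WT and 281 dKO means of up to 3 reads lay within 0.01 of a whole-read step. Where a mean was under 3 reads per library (log2 mean 1.43), the fold is against that level. It leaves out counting error and the spread between libraries.

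Regions were assigned with GENCODE M21, whose GRCm38 coordinates are those of mm10. A region was measured from its nearer edge to the nearest start site of any transcript of the member. Sequences are from RefSeq's GRCm38.p6 assembly. Scripts ran in Python 3.11.15 (pandas 2.3.3, pysam 0.24.0), and assignment and motif search were tested on simulated data. The members and lists were chosen with earlier results of these data known. Each member is named with its most changed region and any region within 1 kb of its start site. Sequences are the most changed regions of 2 members per role above the floor, without 1 at Ltc4s, which overlaps an untranslated part of an exon. Of the other pathway genes, the 3 largest gains and falls above the floor are named. Vamp7 and Hbb-b1 were not found under these symbols.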

Additional observations from a re-analysis of the deposited data

How the results depend on the processing

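Values are group means of 4 libraries, so the limits below concern the choice of regions and not replicate error. Leaving out Scin was chosen after seeing the data. No paired analysis was possible because only 1 mean per group is given, with replicate numbers shared between WT and dKO in the labels alone. For the same reason leaving out a replicate was not run.

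With 10 kb on each side, 16 member regions were higher and 2 lower (median 1.57); in the gene body alone, 11 and 0 (1.52), at 10 members. Regions nearest to the member's own start site were higher at 18 and lower at 1 (1.71), at 11 members. An absolute difference of at least 1 left 22 higher and 1 lower (1.76). Centring on the median of all listed regions, 0.98, gave 22 higher and 10 lower (0.56), against 50.0% higher by construction over all listed regions. Centring turned the medians at Fcer1g (-0.12), Ms4a2 (-0.56) and Srgn (-0.16) and the balance of higher minus lower regions at granule genes (-2). The balance at signalling genes turned to 1 in the body alone and to 2 at a difference of at least 1. The median was 1.13 without the lowest quartile of levels, 1.52 without the region at the floor and 1.37 without Scin, which left 20 higher and 6 lower. In whole regions, C/EBP strings occurred in 40.6% of member regions (42.9% of all listed regions) and GATA strings in 37.5% (28.2%). At a difference of at least 1, RUNX occurred in 4.35% of the central windows of members, against 12.1% of those of all listed regions. At the other pathway genes, 10 kb windows left 43 higher regions, and centring gave 29 lower. In the central 300 bases GATA strings occurred in 21.9% of member regions (7 regions, against 4 in the central 200). The share of all listed regions rose with the wider window as well, to 19.9%. The balance also moved, without turning, at surface receptors (from 7 to as low as 4, in the body alone or without the lowest quartile), at granule genes (from 2 to 1, in the body alone or at a difference of at least 1), at amine and eicosanoid genes (from 4 to as low as 2, in the body alone or with centring) and at exocytosis genes (from 7 to 3 in the body alone and to 1 without Scin). Depth limits the value at Kit to a fold against the floor.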
